A study of Mus musculus with 16 samples.

Results

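The replication-dependent histone genes are the genes of the annotation whose symbols begin with Hist1h, Hist2h, Hist3h or Hist4h. They numbered 67 of 22232 protein-coding gene names, with 6 genes for the linker histone H1, 19 for H2A, 18 for H2B, 11 for H3 and 13 for H4. For each gene it was asked whether a ChIP-seq peak had its centre within 2500 bp of a start site in any of 10 peak lists. Chromatin came from mouse embryonic stem cells (ES) and from neural precursor cells (NPC) taken at day 6 of neural differentiation in suspension, both from the 46C line, in which a fluorescent protein reports the neural gene Sox1. The marks H2AK119ub1 and H3K27me3 were profiled in wild type cells (WT) and in cells with the genotype label shPCGF5 at both stages, which gave 8 lists. Flag-PCGF5 was profiled at both stages in cells of the same line with a 3×Flag tag knocked in at Pcgf5, which the labels also call wild type, and this gave 2 lists. ES were grown on feeder cells with LIF and the 2 inhibitors of 2i medium, and picked colonies were the source of the hairpin and knock-in lines, so each line may descend from few cells. Each group was 1 library, so that no difference between conditions could be tested and no value has a replicate error.

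Replication-dependent histone genes supply the core and linker histones that package new DNA during S phase. They are short, lack introns as a rule, sit in clusters with many near-identical copies, and their mRNAs end in a stem-loop that is not polyadenylated. H2AK119ub1 is the ubiquitin mark placed on histone H2A by Polycomb repressive complex 1, of which PCGF5 is a subunit in one variant form, and H3K27me3 is the methyl mark placed by Polycomb repressive complex 2. Both marks are best known at silent developmental regulators such as the Hox genes.

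The 67 genes fell into 6 spans of neighbours at most 250 kb apart on mm9. The first Hist1 span, chr13:21807632-22135545, held 23 genes and the second, chr13:23622919-24026720, held 31, while Hist1h2al, an H2A gene, stood alone at chr13:51298057-51298434. Hist2 held 9 genes at chr3:96023839-96082924, Hist3 held Hist3h2ba and Hist3h2a at chr11:58762413-58770176, and Hist4h4, an H4 gene, was at chr6:136752589-136752900. Many members share a peak window: 26 of the genes formed 13 divergent pairs with starts within 1000 bp of each other, mostly an H2A gene beside an H2B gene, and the windows of all members merged into 29 stretches. Counts of genes are therefore given with the number of peaks behind them.

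The stretches that carried the findings are shown here as the plus strand of mm9. Capitals mark CCAAT, the motif of the NF-Y factor, on either strand, and a stretch without capitals holds none. The first is the part shared by a pair of H3K27me3 peaks in shPCGF5 ES, over the coding sequence of Hist1h2ao (chr13:21902369-21902647) and, inverted, of Hist1h2ap. The second is the peak of H2AK119ub1 in shPCGF5 NPC within Hist1h3g (chr13:23627468-23627648). The next is the H3K27me3 peak of WT ES over the start of the testis histone gene Hist1h2ba (chr13:24025778-24026071). The fourth is the overlap of H3K27me3 peaks of shPCGF5 ES and shPCGF5 NPC upstream of Hist3h2a (chr11:58766668-58766924). The last 2 are Flag-PCGF5 peaks of NPC, one between the divergent genes Hist1h2an and Hist1h2bp (chr13:21879158-21879329, cut at the start of Hist1h2bp) and one at the start of the H4 gene Hist1h4c (chr13:23790296-23790507).
Hist1h2ao and Hist1h2ap: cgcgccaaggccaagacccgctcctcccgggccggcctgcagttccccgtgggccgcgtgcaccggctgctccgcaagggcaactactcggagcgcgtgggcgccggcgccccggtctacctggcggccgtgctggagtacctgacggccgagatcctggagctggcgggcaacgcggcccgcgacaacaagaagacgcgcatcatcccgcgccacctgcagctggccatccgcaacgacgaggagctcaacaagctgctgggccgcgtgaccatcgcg
Hist1h3g: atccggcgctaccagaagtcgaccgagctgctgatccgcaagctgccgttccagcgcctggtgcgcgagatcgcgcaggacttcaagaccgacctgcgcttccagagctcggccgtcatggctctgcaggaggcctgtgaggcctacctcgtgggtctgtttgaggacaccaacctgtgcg
Hist1h2ba and Hist1h2aa: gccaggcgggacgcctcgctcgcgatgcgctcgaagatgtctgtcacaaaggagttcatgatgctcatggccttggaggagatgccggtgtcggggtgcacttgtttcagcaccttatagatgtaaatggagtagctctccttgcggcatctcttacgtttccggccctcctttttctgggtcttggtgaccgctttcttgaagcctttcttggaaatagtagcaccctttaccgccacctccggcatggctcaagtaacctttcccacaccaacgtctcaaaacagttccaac
Hist3h2a: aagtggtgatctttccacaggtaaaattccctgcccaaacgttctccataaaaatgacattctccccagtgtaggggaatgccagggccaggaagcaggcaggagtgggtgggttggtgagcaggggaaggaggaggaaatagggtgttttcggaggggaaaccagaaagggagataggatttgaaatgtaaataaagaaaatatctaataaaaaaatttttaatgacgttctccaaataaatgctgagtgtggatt
Hist1h2an and Hist1h2bp: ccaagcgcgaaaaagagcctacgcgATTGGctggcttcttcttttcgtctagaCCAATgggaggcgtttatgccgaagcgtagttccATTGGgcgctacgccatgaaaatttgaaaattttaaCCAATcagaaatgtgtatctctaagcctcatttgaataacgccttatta
Hist1h4c: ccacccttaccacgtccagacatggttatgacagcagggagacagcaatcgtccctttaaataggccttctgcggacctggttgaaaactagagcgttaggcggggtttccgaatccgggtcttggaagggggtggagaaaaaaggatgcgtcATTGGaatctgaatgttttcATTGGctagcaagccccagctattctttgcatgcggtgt

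Most histone genes had no peak of any kind near a start. Of the 67 members, 47 had no peak in any list and 55 had none in a list of a mark, while 20 had a peak somewhere. Over all genes this was counted for the mark lists only, so the 47 and the 20 have no general share beside them. In all, 12 members (17.9%) had H2AK119ub1 or H3K27me3 in at least 1 of the 8 mark lists, against 24.6% of all protein-coding genes. A list names only the regions above the peak caller's threshold, so a gene without a peak may still carry the mark at a lower level. The depth of the libraries is unknown from the files. The lists held 3845 to 14759 peaks for the marks, 653 for Flag-PCGF5 in ES and 12013 in NPC. No value of Pcgf5 RNA is in these files, so the depletion itself could not be checked. Among marker genes, which speak of marks and not of RNA, H3K27me3 lay at 1 of 6 ES genes in WT ES (Esrrb) and at 4 of 6 in WT NPC (Zfp42, Klf4, Esrrb and Tbx3), at 3 of 5 neural genes in WT ES (Pax6, Pou3f2 and Cdh2) and at 4 of 5 in WT NPC (Nes, Pax6, Pou3f2 and Tubb3), and at 6 of 6 mesoderm and endoderm genes in both. Sox1 was also planned as a neural marker but was not among the protein-coding gene names used, so it was not counted.

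No H2AK119ub1 peak lay at a histone gene start in 3 of the 4 lists of the mark. No member had a peak in WT ES, where 6.69% of all genes had one, in shPCGF5 ES, where 5.96% did, or in WT NPC, where 4.98% did. With 0 of 67, the 95% Wilson interval reached 5.42%, an interval that covers counting error only and treats genes that share peaks as separate. The share of all genes lay above this bound in WT ES and shPCGF5 ES and below it in WT NPC. Whether histone genes carry the mark less often was not tested. In shPCGF5 NPC, 2 members (2.99%, Wilson 0.822% to 10.2%) were near a peak, against 4.17% of all genes, and both counted through the same single peak. That peak lay inside Hist1h3g, an H3 gene, 267 bp past its start, and was also within reach of the H2A gene Hist1h2af. It was one of the weakest of its list, with a fold enrichment of 3.22, a score percentile of 1.04 and a −log10 q-value of 1.03, which is a q-value above 0.05. None of its 32-base stretches, shown above for Hist1h3g, occurs only once in the genome.

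H3K27me3 was found at few histone genes in WT cells. In WT ES, 2 members (2.99%, Wilson 0.822% to 10.2%) had a peak, against 13.4% of all genes. In WT NPC none had one, against 15.7% of all genes. The cells labelled shPCGF5 had peaks at 10 members in ES (14.9%, Wilson 8.31% to 25.3%), against 12.9% of all genes, and at 2 in NPC (2.99%), against 15.5%. The 10 members of shPCGF5 ES counted through 5 peaks and comprised 4 H2A, 4 H2B and 2 H4 genes. The interval for shPCGF5 ES held the share of all genes, and in the other 3 lists the Wilson interval lay below it. These intervals treat genes that share peaks as separate, and the 2 members of WT ES counted through 1 peak. They are therefore too narrow to show that histone genes carry the mark less often than other genes, which was not tested.

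**Figure D1:**
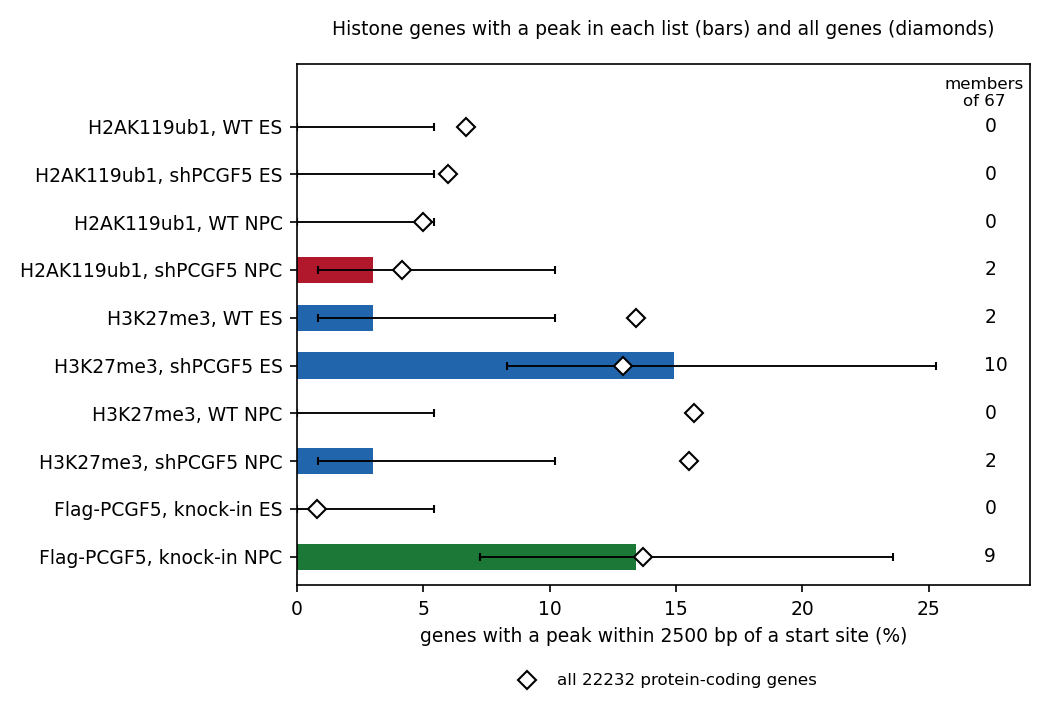
Share of the 67 histone genes with a peak centre within 2500 bp of a start site (bars, percent, with 95% Wilson intervals for counting error) in each of 10 peak lists, and the same share of all 22232 protein-coding genes (diamonds). The number at the right counts the members. Bar and diamond lie close together for H3K27me3 in shPCGF5 ES (14.9% and 12.9%) and for Flag-PCGF5 in NPC (13.4% and 13.7%). The diamond lies beyond the interval in the other 3 lists of H3K27me3. For H2AK119ub1 it lies beyond the interval in WT ES and shPCGF5 ES and within it in WT NPC and shPCGF5 NPC. The intervals treat genes that share peaks as separate, so they are too narrow.

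Between genotypes, the share of histone genes with H3K27me3 in shPCGF5 alone was above that of all genes in ES, where it rested on repeated sequence, and not in NPC. In ES, 8 members (11.9%) had a peak in shPCGF5 and not in WT, against 3.43% of all genes. In the same stage 0 had one in WT and not in shPCGF5, against 3.9% of all genes. In NPC these numbers were 2 (2.99%) and 0, against 3.54% and 3.74% of all genes, so the count of 2 was near the general share. The 8 members of ES rest on 4 peaks at 2 places, a repeated H2A gene in the first Hist1 span and the Hist3 genes. In the 2 peaks at the repeated gene, 0% of 32-base stretches occur only once in the genome. Without the genes near those peaks, only Hist3h2ba and Hist3h2a were left. These 2 members (2.99%) are not above the 3.43% of all genes, a share that was not filtered for repeats. The 2 members of NPC are the Hist3 genes again. With 1 library per group, a difference between genotypes cannot be told apart from a difference between libraries.

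**Figure D2:**
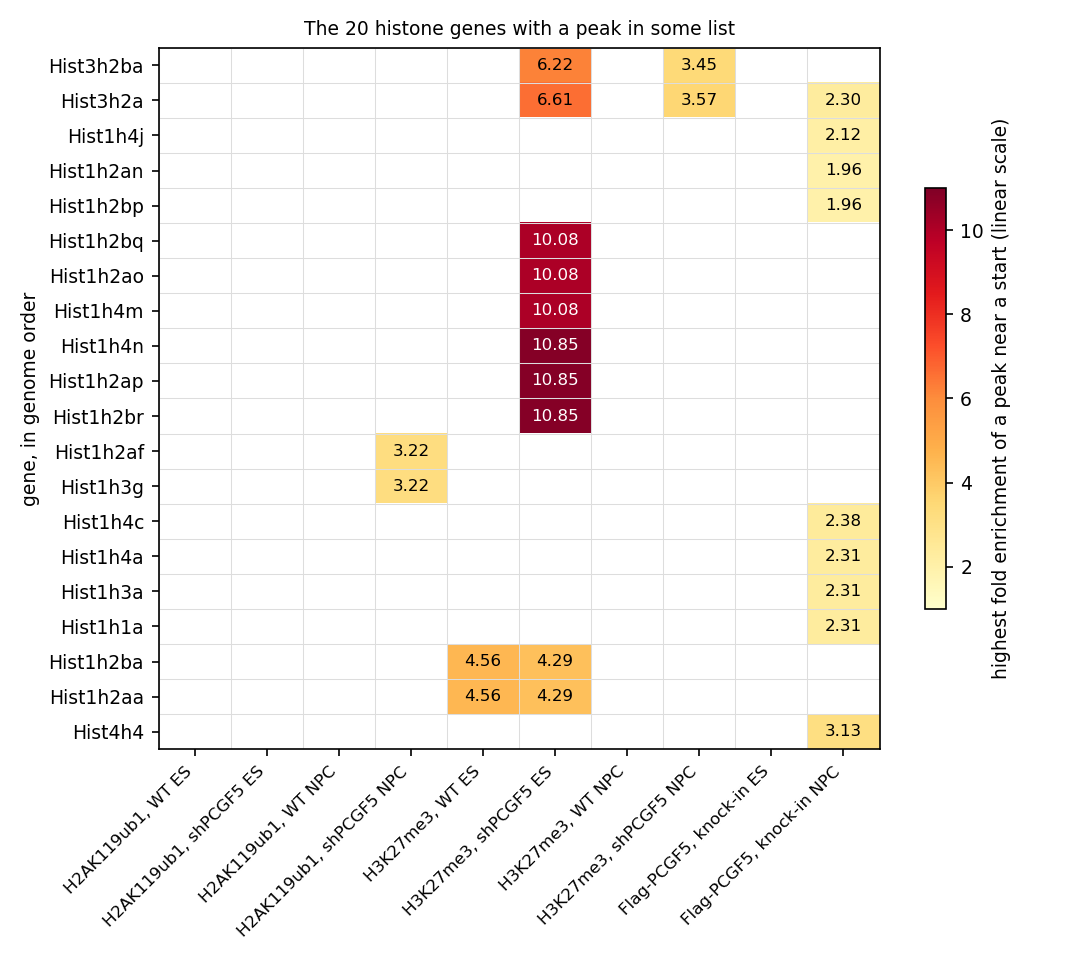
The 20 histone genes with a peak in some list (rows, in genome order) against the 10 lists (columns). Each filled cell gives the highest fold enrichment, on a linear scale, of a peak centred within 2500 bp of a start, and an empty cell means no peak. The 6 genes around Hist1h2ao and Hist1h2ap stand out with folds of 10.08 and 10.85 in H3K27me3 of shPCGF5 ES alone, and neighbouring rows with equal values share a peak.

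The strongest H3K27me3 peaks at histone genes lay in a mirror-image repeat. In shPCGF5 ES, a peak of 305 bp at chr13:21902343-21902647 covered the coding sequence of Hist1h2ao, with a fold of 10.08 and a score percentile of 97.4. A second of 287 bp at chr13:21925025-21925311 covered that of Hist1h2ap, with a fold of 10.85 and a percentile of 97.7. The median fold over all promoter peaks of that list was 5.07, so both were high for their library. Around each peak the gene order is the same but inverted, with Hist1h2bq (H2B), Hist1h2ao (H2A) and Hist1h4m (H4) on one side and Hist1h4n (H4), Hist1h2ap (H2A) and Hist1h2br (H2B) on the other. The gene models match in length, 3788 bp for both H2B genes and 519 bp for both H2A genes, except for the H4 genes, with 402 bp for Hist1h4m and 430 bp for Hist1h4n. These 6 genes were named after their values were seen. None of them had a peak in any other list, neither in WT ES nor at either stage for H2AK119ub1.

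The sequence under both peaks is repeated in the genome. The 279 bases of Hist1h2ao under the peak, shown above, matched those of Hist1h2ap at 279 of 279 positions, and the stretch had 3 exact copies in the genome, the last in Hist1h2ag, an H2A gene without a peak in any list. Of the 19 H2A members, 12 held a stretch at least 95% identical to it, while Hist3h2a (86.7%) and Hist1h2aa (83.9%) were the farthest apart from it together with Hist2h2ab (87.8%). No 32-base stretch in either peak was found only once in the genome. Within 500 bp of their starts, 0% of such stretches were unique in the H2A and H2B genes of the repeat, and 3.81% and 2.89% in Hist1h4m and Hist1h4n. Counting only peaks in which at least 50% of the 32-base stretches are unique, a choice made after seeing the data, 4 members (5.97%) remained in shPCGF5 ES rather than 10. How reads with several equal placements were treated is not given in the sources used here, and the part of such reads in these peaks was not tested.

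Repeated sequence was common among the members as a whole. The median share of unique 32-base stretches within 500 bp of a start was 63.6% for histone genes and 100% for all genes, and 22 members (32.8%) lay below 50%, against 7.21% of all genes. By type the medians ran from 47.9% in H2A and 50.8% in H2B through 63.6% in H3 and 77.5% in H4 to 90.1% in H1. The 10 members with H3K27me3 in shPCGF5 ES had a median of 3.35%, with a range of 0 to 95.1%, and the 57 others had 64.5%. That median describes a split set, since the genes of the repeat lay at 3.81% or less and the rest at 77.1% or more. For Flag-PCGF5 in NPC the medians were 75.2% in the 9 genes with a peak and 62.9% in the 58 without. The shares of genes with a peak were not adjusted for repeated sequence, and its part in them was not tested.

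**Figure D3:**
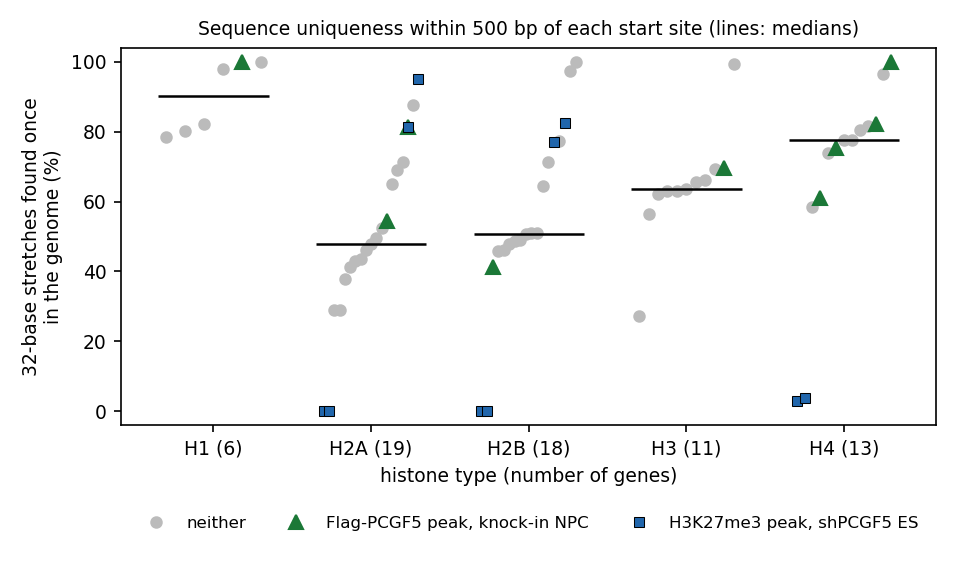
Share of 32-base stretches within 500 bp of a start site that occur once in the genome (percent, vertical axis), 1 point per histone gene, by histone type (horizontal axis, number of genes in brackets). Squares mark genes with H3K27me3 in shPCGF5 ES, triangles genes with Flag-PCGF5 in NPC, grey points neither, and lines the medians. Among the squares, 6 lie at 3.81% or less and the other 4 at 77.1% or more.

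The testis histone genes Hist1h2ba (H2B) and Hist1h2aa (H2A), a divergent pair at the end of the second Hist1 span whose products package DNA in the male germ line, were the members with H3K27me3 in WT ES. The peak at chr13:24025778-24026071 lay over the start of Hist1h2ba, with a fold of 4.56 and a percentile of 52.2. In shPCGF5 ES a peak at chr13:24026538-24026738 lay inside Hist1h2aa, with a fold of 4.29 and a percentile of 17.6. Both genes were thus called in both genotypes, but the peaks did not overlap. Unlike the repeat, these peaks were largely unique, at 93.2% and 76.5% of 32-base stretches. Neither gene had a peak in an NPC list of either mark. Hist1h1t, the linker histone of spermatocytes, had no peak in any of the 10 lists.

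At Hist3, both genes were near H3K27me3 peaks in cells labelled shPCGF5 at both stages and in WT cells at neither. Hist3h2ba encodes an H2B and Hist3h2a an H2A, and Trim17, which encodes a ubiquitin ligase of the TRIM family, starts at the same base as Hist3h2a in the annotation. In shPCGF5 ES, a peak at chr11:58763832-58764032 (fold 6.22, percentile 82.6) lay 1519 bp past the start of Hist3h2ba and beyond its end. Another at chr11:58766573-58766924 (fold 6.61, percentile 88.0) lay 1438 bp upstream of Hist3h2a. In shPCGF5 NPC the peaks were weaker for their list. The one past Hist3h2ba, chr11:58763677-58764015, had a fold of 3.45 and a percentile of 6.76. The pair upstream of Hist3h2a, chr11:58766668-58767106 and chr11:58767236-58767441, had folds of 3.57 and 3.36 and percentiles of 16.1 and 17.1. None of these peaks overlapped a protein-coding gene. Only the last had its centre within 1000 bp of the start of a Hist3 gene, 848 bp upstream of Hist3h2a. A window of that size therefore left no Hist3 call in shPCGF5 ES. The NPC call was lost when only the higher-scoring 50% of each list was counted and when the 4 H3K27me3 lists were cut to the same number of peaks, which left 0 members in both NPC lists, while the shPCGF5 NPC list as deposited was longer than that of WT NPC (14759 against 11371 peaks). The sequence around them was largely unique, from 89.7% to 100% of 32-base stretches.

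WT NPC was not free of H3K27me3 in this neighbourhood. A peak at chr11:58774453-58774671, with a fold of 5.08, lay inside Trim17, 6375 bp from the start of Hist3h2a. Near the starts of Trim17, which has others farther along the gene, H3K27me3 gave 0 peaks in WT ES, 2 in shPCGF5 ES, 1 in WT NPC and 4 in shPCGF5 NPC, and H2AK119ub1 gave 1 in WT ES and 0 in the other lists. Flag-PCGF5 in NPC had a peak of 290 bp over the shared start, at chr11:58767927-58768216, with a fold of 2.30. Hist3h2a was the only member with both a Flag-PCGF5 peak and a mark, in separate cell lines. The share of all genes with both was not computed, so nothing is read from this count.

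**Figure D4:**
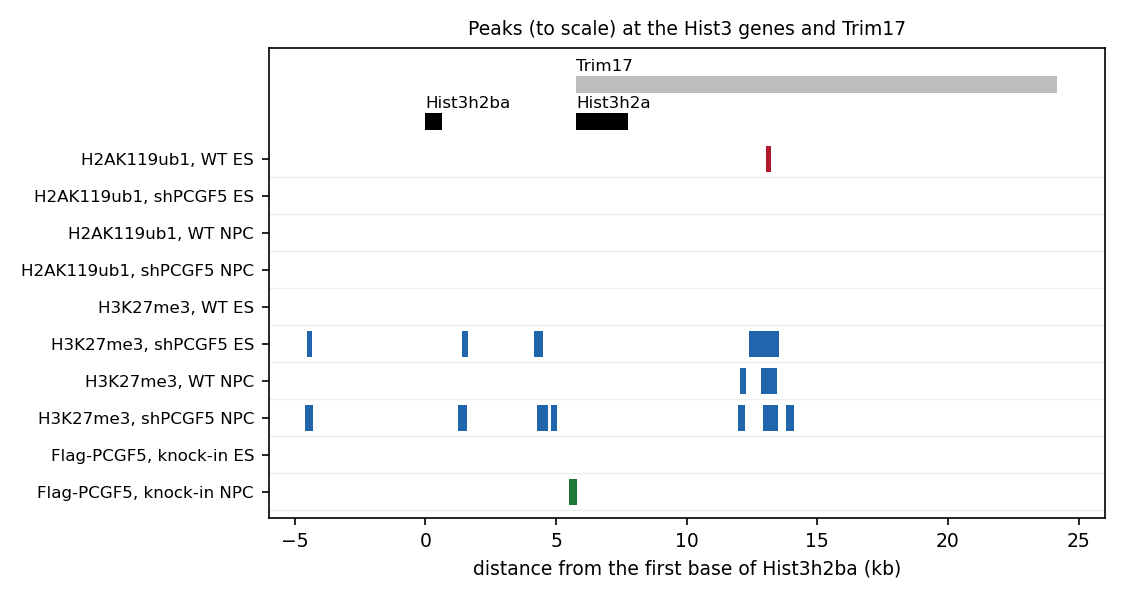
Peaks of the 10 lists at Hist3h2ba, Hist3h2a and the overlapping gene Trim17, drawn to scale against the distance in kb from the first base of Hist3h2ba. The H3K27me3 rows of shPCGF5 ES and shPCGF5 NPC hold peaks between both histone genes where the WT rows have none, while WT NPC and both shPCGF5 rows hold peaks farther along Trim17.

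Flag-PCGF5 was found at histone genes at about the general rate in NPC, and in ES too few genes had a peak for a comparison. In ES 0 members had a peak, against 0.787% of all genes, a share within the Wilson interval, which reached 5.42%. Cut to the 653 peaks of the ES list, the NPC list also gave 0 members. In NPC 9 members did (13.4%, Wilson 7.23% to 23.6%), through 6 peaks, against 13.7% of all genes. By type these were 4 of 13 H4 genes, 2 of 19 H2A, 1 of 18 H2B, 1 of 11 H3 and 1 of 6 H1 genes. The folds ran from 1.96 to 3.13 with a median of 2.3, beside 2.18 over all promoter peaks of the list, and the median width was 324 bp beside 609 bp.

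Hist4h4 had the highest Flag-PCGF5 value of the family. Its peak of 1452 bp at chr6:136752056-136753507 spanned the whole gene, with a fold of 3.13 and a percentile of 93.1. H2afj, a replication-independent H2A gene next to it, had a peak of its own with a fold of 2.70. Hist1h4c followed with a fold of 2.38 at a peak 79 bp upstream of its start. One peak of fold 2.31, 91 bp upstream of the H4 gene Hist1h4a, also lay within reach of the H3 gene Hist1h3a and of the linker gene Hist1h1a. Hist1h4j (H4) had a peak of fold 2.12 that lay 1455 bp upstream, and the divergent pair Hist1h2an (H2A) and Hist1h2bp (H2B) had one of fold 1.96 between both starts. These last peaks had score percentiles of 23.8 and 19.7 and the caller's −log10 p-values of 3.84 and 3.63. Both fall short of the p below 0.0001 that the methods state, and Hist1h4j, Hist1h2an and Hist1h2bp counted only through them. In 3 of the 6 peaks the centre was within 100 bp of a start. The sequence under all 6 was unique at 94.2% or more of its 32-base stretches. The stretch between Hist1h2an and Hist1h2bp, shown above, held 4 copies of CCAAT counting both strands and that at Hist1h4c held 2, while 300-base parts of the peaks at Hist1h4a and Hist4h4 held 1 and 0.

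Linker histones bind DNA between nucleosomes. Of the 6 linker genes, Hist1h1a had the Flag-PCGF5 peak just described, and Hist1h1b, Hist1h1c, Hist1h1d, Hist1h1e and Hist1h1t had no peak in any list. The Hist2 span held no peak of any list, so that Hist2h2ab, Hist2h2ac, Hist2h2aa1 and Hist2h2aa2 (H2A), Hist2h2be and Hist2h2bb (H2B), Hist2h3b and Hist2h3c1 (H3) and Hist2h4 (H4) were all without one. Hist1h2al was likewise without a peak. With so few genes these counts cannot be told from the shares of all genes, since for 0 of 9 the Wilson interval reached 29.9%.

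Across the Hist1 spans, peaks of the marks lay mostly away from histone genes, and in NPC. The 2 spans cover 742 kb with their margins. H3K27me3 had 1 peak there in WT ES, 3 in shPCGF5 ES, 15 in WT NPC and 14 in shPCGF5 NPC. H2AK119ub1 had 0, 0, 7 and 1 in the same order, and Flag-PCGF5 had 0 in ES and 6 in NPC. In WT NPC the H3K27me3 density was 20.2 peaks per Mb, against 4.3 over chromosomes 1 to 19 and X, and that of H2AK119ub1 was 9.44, against 2.18. In WT ES the densities were 1.35 for H3K27me3, against 4.47, and 0 for H2AK119ub1, against 3.28. None of the H3K27me3 peaks of NPC in these spans was within 2500 bp of a start of a histone gene.

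Most of the H3K27me3 peaks of NPC, and of the H2AK119ub1 peaks of WT NPC, lay in 1 gap between histone genes. Between Hist1h2br and Hist1h2ah, 198 kb without a histone gene hold Zfp184, Pom121l2 and Prss16, a protease gene of the thymus. There H3K27me3 had 14 peaks in WT NPC, covering 8592 bp, and 14 in shPCGF5 NPC, covering 6003 bp. H2AK119ub1 had 6 in WT NPC, covering 1848 bp, and 0 in shPCGF5 NPC, and none of the 4 ES lists of the marks had a peak in the gap. The 6 H2AK119ub1 peaks had score percentiles of only 1.29 to 42.2, and the WT NPC list was longer than that of shPCGF5 NPC (5754 against 3845 peaks). With lists of equal length, 2 H2AK119ub1 peaks of WT NPC were left in the Hist1 spans, and 0 with the higher-scoring 50%. The difference between genotypes was not tested. Of the WT H3K27me3 peaks 7 of 14 were overlapped by one of shPCGF5, and 8 of 14 the other way. All 6 H2AK119ub1 peaks were overlapped by H3K27me3 of WT NPC, and 5 by that of shPCGF5 NPC. Flag-PCGF5 had 1 of its 6 NPC peaks in the gap, within Prss16, and it overlapped H3K27me3 of WT NPC. Peaks clustered at Pom121l2 and Prss16, and the one closest to a histone gene was 20158 bp from its start.

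**Figure D5:**
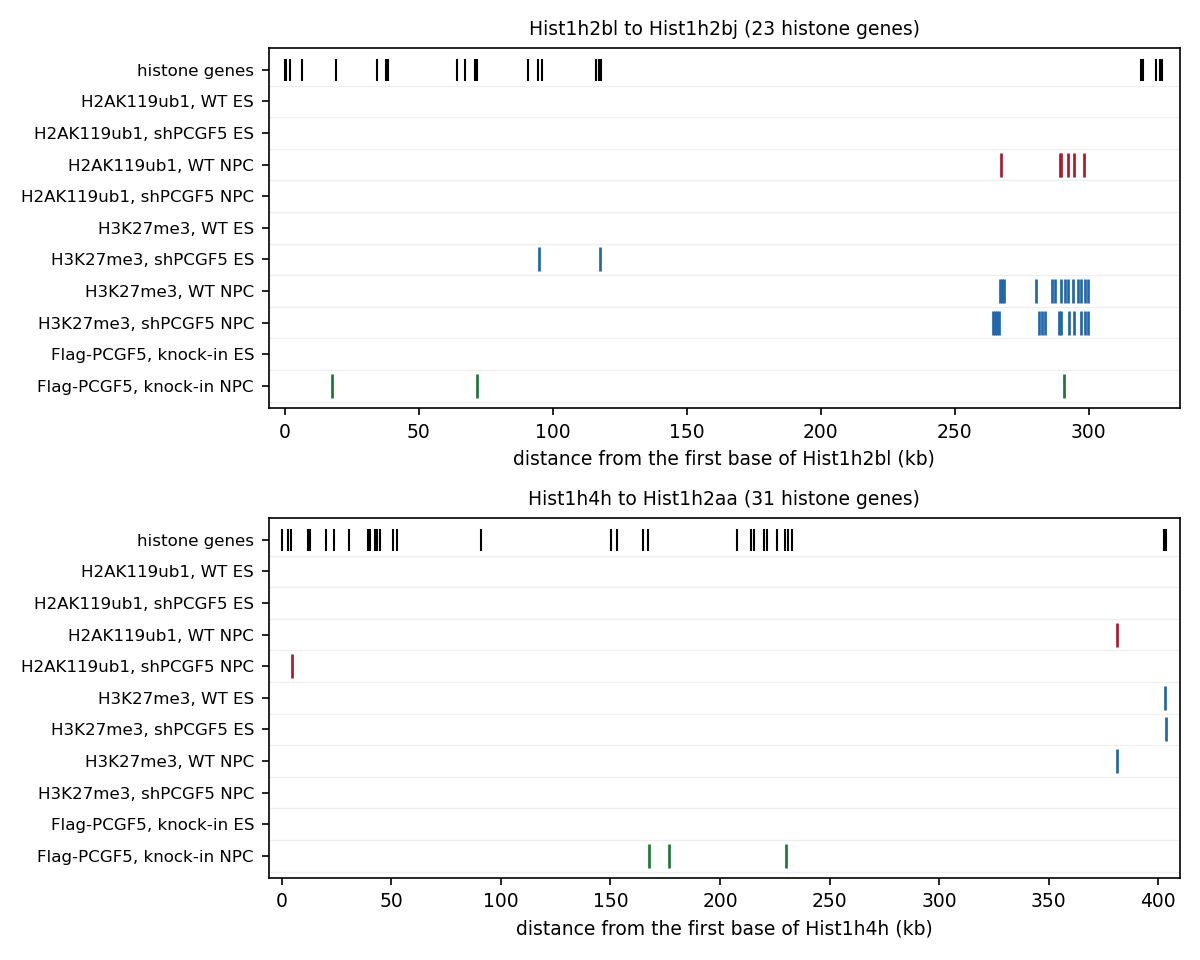
Centres of the peaks of each list (coloured ticks, not to width) and histone genes (black ticks) along the first and second Hist1 spans, in kb from the first base of each span. The NPC ticks of H3K27me3 and H2AK119ub1 gather in the gap of 198 kb between histone genes of the first span, and the H3K27me3 ticks of shPCGF5 ES in that span lie at the repeated H2A genes.

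In WT ES no H2AK119ub1 peak lay between chr13:13483457 and chr13:29043868, a distance of 15.6 Mb that spans both Hist1 spans, and 7 distances between neighbouring peaks of that list were wider. The median distance from a histone gene to the nearest H2AK119ub1 peak of WT ES was 5380 kb, against 184 kb for all genes, and members of a cluster share this distance. In shPCGF5 ES it was 251 kb, against 176 kb, and 3 H2AK119ub1 peaks of that list lay between Hist1h2bl and Hist1h2aa, the outermost genes of both spans. For H3K27me3 it was 183 kb in WT ES, against 103 kb, and 151 kb in WT NPC, against 101 kb. To Flag-PCGF5 in NPC histone genes were closer than the median gene, at 22.8 kb against 63.6 kb.

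Histone genes differed from genes with H3K27me3 in base composition. Their median GC content within 500 bp of a start was 54.0%, against 59.8% in the 5131 genes with H3K27me3 in any list and 54.8% in all genes. The ratio of observed to expected CpG was 0.88, against 0.64 and 0.55. In the 300 bases from 250 upstream to 50 downstream of a start, TATAAA on either strand was found in 56.7% of members and 13.4% of all genes, and CCAAT in 85.1% and 37.9%. ATTTGCAT, the octamer bound by POU2F1, was found in 22.4% of members and 1.72% of all genes, namely in 7 H2A and 8 H2B genes and in no H1, H3 or H4 gene. A match of letters says nothing about occupancy in these cells.

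Other gene groups were set beside the members, each by its counts. Hox genes, the textbook targets of Polycomb, had H2AK119ub1 at 79.5% to 100% of 39 genes and H3K27me3 at 87.2% to 100%, and Flag-PCGF5 in NPC at 4. Ribosomal protein genes, which like histone genes are highly transcribed in dividing cells, had H2AK119ub1 at 0 to 5 of 84 genes, H3K27me3 at 0 to 2, and Flag-PCGF5 in NPC at 20 (23.8%). Of 13 replication-independent histone genes, which are expressed throughout the cell cycle or in single tissues, 1 had a mark, H2afy2 with H3K27me3 in shPCGF5 NPC, and 5 had Flag-PCGF5 in NPC (Cenpa, H1fx, H2afj, H2afv and H3f3b). Among 29 genes for transcription factors, processing factors and chaperones of histones, Pou2f2, a lymphoid octamer factor, had H3K27me3 in all 4 lists and Sympk, a scaffold of the cleavage machinery, in 3. Of these 29 genes, 7 had Flag-PCGF5 in NPC (Atrx, Cstf2, Daxx, E2f1, Hirip3, Pou2f2 and Zfp473). Npat and Slbp, the coactivator and the stem-loop binding protein dedicated to replication-dependent histone genes, had no peak in any list.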

How the data were processed

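The data were 16 ChIP-seq libraries, 1 per group, of which 10 peak lists were used. The 6 inputs were not analysed here. Groups came from the labels. The shPCGF5 label stands for PCGF5-depleted cells, and the study describes both hairpin and nuclease knockout lines. According to the methods, chromatin for the marks was digested with micrococcal nuclease and lightly fixed, and Flag chromatin was sonicated after fixing with EGS and formaldehyde. Reads were trimmed by the authors, who dropped those under 36 bp, aligned the others to mm9 with Bowtie2, removed duplicates and called peaks per library with MACS2 (2.1.0 per the submitters' processing notes), by default for the marks and at p below 0.0001 and q below 0.01 for Flag as the methods state. The deposited lists differ from this: no mark peak had p above 0.0001 but 27 to 1040 peaks of 6 mark lists had q above 0.05, and no Flag peak had q above 0.01 but 9 in ES and 4150 in NPC had p above 0.0001. A Drosophila spike-in does not enter the lists. The deposited columns hold the caller's score, its fold enrichment (a ratio) and its p-value and q-value as −log10. The score is 10 times −log10 p (marks) or −log10 q (Flag), and percentiles are ranks by score within a list. Depth is unknown.

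Starts were those of protein-coding transcripts of GENCODE M1 on NCBIM37, the assembly of mm9. Coordinates count from 1. Shares carry 95% Wilson intervals (scipy 1.17.1), and no test was made, since groups had 1 library. Window counts were tested on simulated data and against bedtools 2.31.1. Uniqueness is the share of 32-base stretches found once in the genome on either strand. The named genes were all members outside Hist1, those with a mark in 2 or more lists, those with Flag in ES, the 10 with the highest Flag fold in NPC, linker histones and testis histones. Only 9 had a Flag peak in NPC. Hist1h2bq, Hist1h2ao, Hist1h4m, Hist1h4n, Hist1h2ap, Hist1h2br, Hist1h2ag, Hist1h2af and Hist1h3g were named after their values were seen, and the rest were given by counts. The members, lists and rules were chosen with earlier results of these data known. Protein sequences were not used here. Alternatives were the window, any overlap, 1 start per gene, higher-scoring or equally many peaks, merged peaks, narrower spans and, after seeing the data, unique peaks and q of at most 0.05.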

Additional observations from a re-analysis of the deposited data

Results flagged for a closer look

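The number of H3K27me3 peaks in the Hist1 spans moved in opposite directions between genotypes at the 2 stages. It was 2 higher in shPCGF5 than in WT in ES (3 against 1 peak) and lower by 1 in NPC (14 against 15, a difference of -1). With 1 library per group the difference was not tested. The direction in NPC turned when peaks within 1000 bp were merged (7 in shPCGF5 against 6 in WT) and with the higher-scoring 50% of each list (9 against 4). With equally many peaks per list the direction in NPC stayed (10 in shPCGF5 against 13 in WT), and no peak was left in NPC with narrower spans. The ES peaks lay at Hist1h2ao, Hist1h2ap and the Hist1h2ba and Hist1h2aa pair, and those of NPC in shPCGF5 all lay between histone genes. The peaks at Hist1h2ao and Hist1h2ap, found in shPCGF5 ES and not in WT ES, held no 32-base stretch that is unique in the genome.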

How the results depend on the processing

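No paired analysis was possible because each group was 1 library and no result came from a test. Depth, unknown here, limits all counts. The shares of histone genes with a peak stayed within their Wilson intervals in all 10 lists with any overlap of the peak, with the window of 1000 bp and with 1 start site per gene. These intervals cover counting error and do not measure stability to such choices. With the window of 1000 bp, members fell from 10 to 6 for H3K27me3 in shPCGF5 ES and from 9 to 6 for Flag-PCGF5 in NPC. In shPCGF5 NPC they fell from 2 to 1 for each mark. With the higher-scoring 50% of each list, the share fell to 0% for H2AK119ub1 and for H3K27me3 in shPCGF5 NPC, and with equally many peaks per target it fell to 0% for H3K27me3 in shPCGF5 NPC and for Flag-PCGF5 in NPC, whose list was cut to the 653 peaks of ES. Counting only largely unique peaks gave 5.97% for H3K27me3 in shPCGF5 ES and 0% for H2AK119ub1 in shPCGF5 NPC, and a q-value of at most 0.05 also gave 0% for the latter. In the Hist1 spans, neighbours at most 100 kb apart left 0 peaks of H2AK119ub1 in WT NPC and 0 of H3K27me3 in both NPC lists, since the gap of 198 kb and the one before Hist1h2ba then fall outside. Merging peaks within 1000 bp gave 6 H3K27me3 peaks in WT NPC and 7 in shPCGF5 NPC. The higher-scoring 50% gave 4 and 9 of these, 0 for H2AK119ub1 in both NPC lists and 2 for Flag-PCGF5 in NPC. Equally many peaks gave 2 for H2AK119ub1 in WT NPC and 0 for Flag-PCGF5 in NPC.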
